A study of Mus musculus with 14 samples.

Results

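The transcription factors that promote the follicular helper T-cell (Tfh) programme and those that oppose it were examined in CD4+ T-cells of Roquin san/+ and wild-type mice. The 9 genes were taken by name (Bcl6, Maf, Ascl2, Tox, Tox2, Batf, Tcf7, Lef1 and Prdm1) from 36870 gene names on a mouse expression array. They were represented by 22 probes, of which 20 were bright enough to be tested, with at least 1 tested probe for every gene. RNA of CD4+ T-cells was labelled with Cy3 and hybridised to 14 one-colour arrays, 7 labelled Roquin san/+ (replicates A to G) and 7 labelled wild-type (replicates A to G). Roquin san/+ animals carry 1 copy of the sanroque point mutation in Rc3h1, the gene for the RNA-binding protein Roquin-1, and no treatment was given to either genotype as far as the labels state. The age of the mice, the organ and the method of cell isolation were not given in the labels, and neither was whether every array came from a separate animal. The P values below treat each array as an independent sample of its genotype, and would be too small if arrays shared animals.

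Tfh cells are the CD4+ T-cells that enter B-cell follicles and help germinal centre B-cells. Bcl6 is the repressor that defines them, and it and Prdm1, which encodes Blimp-1, repress each other. Maf, Batf, Ascl2, Tox and Tox2 act with Bcl6 on follicular homing and on Tfh genes such as Cxcr5, Icos and Il21, while Tcf7 and Lef1 encode the TCF-1 and LEF-1 factors of naive and memory T-cells that favour Bcl6 and hold down Prdm1. Roquin-1 normally destabilises transcripts including Icos, and the sanroque strain is known for an accumulation of Tfh cells.

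The probes on which the results turn are given here because a level on this array is the brightness of 1 probe of 60 bases, and probes of the same gene did not always behave alike. The first 30 bases of each are written 5′ to 3′ in lower case as the array files give them. The Bcl6 probe lies at chr16:23965160-23965219 on the minus strand of mm9, the Ascl2 probe at chr7:150152734-150152793 (minus), the Batf probe at chr12:87049872-87049929 (plus) and the Prdm1 probe at chr10:44166619-44166678 (minus). Maf was read by a brighter probe at chr8:118227736-118227795 (minus) and by a dimmer one at chr8:118206902-118206961 (minus), which was designed for another transcript. Lef1 was read by a bright probe at chr3:130926200-130926259 (plus) and, on another transcript, by a dim one at chr3:130820246-130820305 (plus). Exons and untranslated regions were not assigned, as no annotation of this build was used.
Bcl6: cagggtttggctgtgtctaaactgcattag
Ascl2: ggccagtgtgggaaccctgctgttgcaaag
Batf: tatagtcaatgtactggactctcccaggga
Prdm1: aacttcttgtgtggtattgtcgggactttg
Maf, brighter probe: tgggtatgtgtagttcttgctataccatgg
Maf, dimmer probe: catggaccctgcttgtttctaaacaccggt
Lef1, bright probe: actgcaagcgccgacttccaaaaagaaagc
Lef1, dim probe: cataatcttcctggtatttatacacagcac

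The arrays lay on 2 slides, slide 1 with 5 Roquin san/+ and 2 wild-type arrays and slide 2 with 2 and 5. Spots of Roquin san/+ G and wild-type E lay 2 grid rows off their probe names and were moved back before any comparison (correlation with the median array 0.02 before and 0.99 after). Well above background were 55.4% to 76.5% of probes on the 12 well-placed arrays, and 23.6% and 21.4% on the 2 displaced arrays. On those 2 arrays the control spots were out of place when detection was called. Their calls had no part in choosing the probes to be tested. They did enter the choice of the 10345 probes over which each array's 75th percentile was taken. Roquin san/+ C was a dim array, whose processed signal had a 75th percentile of 107 units against 339 to 996 on the 13 others. Levels are log2 of the processed signal less the array's 75th percentile, so 0 is a bright spot and a difference of 1 is a doubling, and levels of different probes are not set against each other. T-cell markers were above background throughout, and the mean level of 8 of them ran from 0.77 to 2.25 in Roquin san/+ and from 0.98 to 2.24 in wild-type. The arrays with the lowest mean were Roquin san/+ F (0.77), Roquin san/+ C (0.94) and wild-type C (0.98). Roquin san/+ F also held the highest mean of the B-cell markers (-0.17, against -6.31 to -2.04 on the 13 other arrays) and of the myeloid markers (1.43, against -3.47 to -0.94). On F 6 of 7 tested B-cell markers, 8 of 9 myeloid, 4 of 4 NK and 5 of 5 erythroid markers were the highest of the Roquin san/+ arrays. In bulk RNA, fewer cells of a type and less RNA per cell cannot be told apart.

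No transcription factor of the 9 passed the test between genotypes. With limma and Benjamini-Hochberg adjustment over 32941 probes, 0 of 9 genes had an adjusted P value below 0.05, as had 0 of all probes tested (0%), and the adjusted P values of the 20 member probes ran from 0.882 to 0.935. The 9 lead probes, the brightest tested probe of each gene, were higher in Roquin san/+ for 7 genes and lower for Tcf7 and Lef1, and their median difference was 0.51 beside a median of 0.10 over all tested probes, of which 63.5% were higher. At an unadjusted limma P value below 0.05, 2 lead probes were higher (Ascl2 and Batf), where 2.96% of all tested probes were, and 1 further probe was lower (the dim Lef1 probe), where 0.279% were. The zero point of this scale depended on the scaling: the median of all tested probes was 0.29 with another background correction (normexp; 80.7% higher), -0.080 with quantile normalization (40.3%), -0.069 with the 75th percentile taken over all probes (42.5%) and -0.067 in the deposited log2 values (40.4%). With the 75th percentile over probes well above background on the 12 well-placed arrays, that median was 0.047 (56.0% higher). The directions of the 9 lead probes were the same under each scaling tried. Relative to the median of all probes, however, Maf turned from 0.20 above it to -0.059 with normexp.

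**Figure D1:**
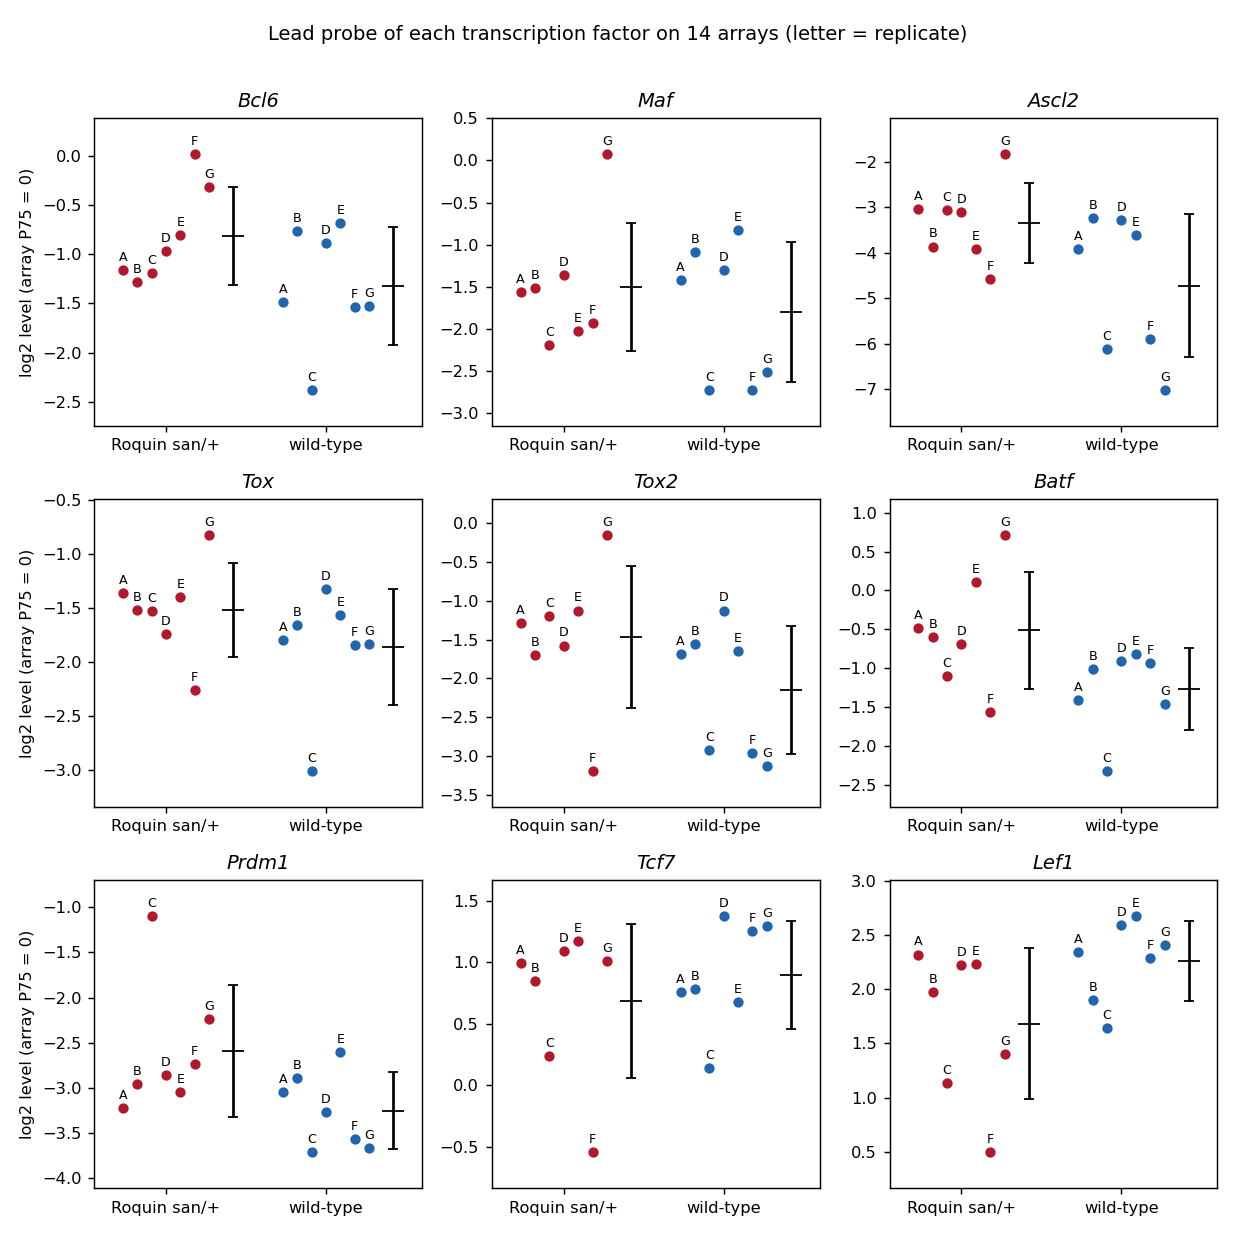
Log2 level of the lead probe of each of the 9 genes (y axis, array 75th percentile at 0) on the 7 Roquin san/+ arrays (red) and the 7 wild-type arrays (blue), with the replicate letter at each point and the mean ± SD in black. The genotypes overlap for every gene; replicate G is the highest Roquin san/+ array for 5 genes and replicate C the lowest wild-type array for 7.

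Bcl6 ran from -1.29 to 0.021 (median -0.97) in the 7 Roquin san/+ samples and from -2.38 to -0.69 (median -1.49) in the 7 wild-type samples. All 7 Roquin san/+ arrays lay above the wild-type median, but only F and G lay above the highest wild-type array. The means were -0.82 ± 0.49 and -1.33 ± 0.60 (SD, n = 7 each), a difference of 0.51 (SE 0.29, adjusted P value 0.882 in limma; two-sided exact permutation P = 0.109), or 1.42-fold. The highest level was that of F, the array with the B-cell signal, and Bcl6 is also a factor of germinal centre B-cells. The 3 tested germinal centre B-cell markers had a mean of -4.43 on F, and 1 of the 3 was highest on F of the Roquin san/+ arrays. Their mean was -3.80 on Roquin san/+ G, -4.33 on wild-type B and -4.37 on wild-type E. Without F and both displaced arrays the difference was 0.35 (exact permutation P = 0.249), against 0.53 (P = 0.119) with only the displaced arrays left out. Within slide 1 the difference was 0.74 and within slide 2 it was 0.35. Whether the other cells in F set its Bcl6 level was not tested. A second Bcl6 probe gave 0.48 (exact permutation P = 0.161), and it too was highest on F, at -2.36, with the 6 remaining Roquin san/+ arrays between -4.28 and -3.04.

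Ascl2, a basic helix-loop-helix factor that acts early on Cxcr5 and on migration to follicles, had the largest difference of the lead probes. Its level ran from -4.57 to -1.82 (median -3.11) in Roquin san/+ and from -7.02 to -3.24 (median -3.91) in wild-type. The wild-type arrays lay apart from each other: A, B, D and E lay between -3.91 and -3.24, and C, F and G at -6.11, -5.89 and -7.02. The Roquin san/+ mean was -3.34 ± 0.88 against -4.72 ± 1.57 (SD, n = 7 each), a difference of 1.38 (SE 0.63, adjusted P value 0.882 in limma; exact permutation P = 0.0711), or 2.61-fold. The low wild-type arrays F and G are the only wild-type arrays of slide 1, so that the difference was 3.19 within slide 1 (5 against 2 arrays, exact permutation P = 0.0476, the smallest that 21 arrangements allow) and 0.52 within slide 2 (P = 0.667). The difference between the slides was -2.67 (slide 2 less slide 1, limma adjusted P value 0.419 over all probes). With slide as a block it was 1.85 (exact permutation within slides P = 0.0317). The other Ascl2 probe was above background on 3 of 12 well-placed arrays and was not tested.

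Batf, an AP-1 factor needed for Bcl6 and Maf expression in T-cells, ran from -1.57 to 0.72 (median -0.60) in Roquin san/+ and from -2.33 to -0.82 (median -1.01) in wild-type. A, B, D, E and G of the Roquin san/+ arrays lay above every wild-type array, while C and F lay within the wild-type range. The means were -0.52 ± 0.75 and -1.27 ± 0.53 (SD, n = 7 each), a difference of 0.75 (SE 0.33, adjusted P value 0.882 in limma; exact permutation P = 0.0490), or 1.68-fold. The difference was 0.60 within slide 1 and 1.004 within slide 2, and 0.80 with slide as a block (exact permutation within slides P = 0.0726). Leaving out 1 array at a time moved it from 0.55 (without G) to 0.93 (without F), with exact permutation P values from 0.00758 to 0.106. Without F and both displaced arrays it was 0.79 (exact permutation P = 0.0195).

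Maf, a bZIP factor that drives Il21 and Il4 in Tfh cells, showed the smallest difference of the 7 genes that were higher. Its lead probe ran from -2.19 to 0.08 (median -1.56) in Roquin san/+ and from -2.73 to -0.82 (median -1.42) in wild-type, so that 5 of 7 Roquin san/+ arrays lay below the wild-type median. Roquin san/+ G stood alone at 0.08, with the next array at -1.36. The difference was 0.30 (SE 0.40, limma adjusted P value 0.913; exact permutation P = 0.501), or 0.035 without G. The 2 other Maf probes, both designed for another transcript, gave 0.61 and 0.68 (exact permutation P = 0.182 and 0.209). On these probes 6 of 7 Roquin san/+ arrays lay above the wild-type median. Maf was higher within slide 1 (1.20) and lower within slide 2 (-0.22).

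Tox and Tox2 encode related HMG-box factors of the Tfh and T-cell activation programmes. Tox ran from -2.26 to -0.83 (median -1.52) in Roquin san/+ and from -3.02 to -1.33 (median -1.80) in wild-type, a difference of 0.34 (SE 0.26, limma adjusted P value 0.882; exact permutation P = 0.233). The wild-type arrays other than C lay close together, between -1.85 and -1.33, and without wild-type C the difference was 0.15. It was 0.34 within slide 1 and 0.30 within slide 2. The 3 other tested Tox probes gave 0.22, 0.29 and 0.61, and one further probe was above background on no well-placed array. Tox2 ran from -3.19 to -0.15 (median -1.29) in Roquin san/+ and from -3.13 to -1.13 (median -1.68) in wild-type. Its low arrays were Roquin san/+ F and wild-type C, F and G, between -3.19 and -2.92, and all 10 others lay at or above -1.70. The Tox2 difference was 0.68 (SE 0.44, limma adjusted P value 0.882; exact permutation P = 0.175), 1.54 within slide 1 and 0.43 within slide 2. It was 0.97 without F and 0.46 without G (exact permutation P = 0.0501 and 0.340).

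Tcf7 and Lef1, both HMG-box factors of the Wnt pathway that are abundant in naive T-cells, were the 2 genes with lower means in Roquin san/+. Tcf7 ran from -0.54 to 1.17 (median 0.99) in Roquin san/+ and from 0.14 to 1.38 (median 0.78) in wild-type. The means differed by -0.21 (SE 0.28, limma adjusted P value 0.913; exact permutation P = 0.502), and by -0.0074 without F, the array at -0.54. The 2 other Tcf7 probes gave -0.31 and -0.37. The direction differed between slides, at -0.77 within slide 1 and 0.38 within slide 2. Lef1 ran from 0.49 to 2.32 (median 1.97) in Roquin san/+ and from 1.65 to 2.68 (median 2.35) in wild-type. C, F and G of the Roquin san/+ arrays lay below every wild-type array, and no Roquin san/+ array lay above the wild-type median. The difference was -0.58 (SE 0.29, limma adjusted P value 0.882; exact permutation P = 0.0705) and it was -0.22 (P = 0.442) without F and both displaced arrays. Within slide 1 it was -0.88 and within slide 2 it was -0.00021.

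The dim Lef1 probe shown above had a larger difference than the bright one, with levels of -7.11 to -3.78 in Roquin san/+ against -4.98 to -3.43 in wild-type. It differed by -1.11 (SE 0.42, limma adjusted P value 0.882; exact permutation P = 0.0286), and 5 of 7 Roquin san/+ arrays lay below every wild-type array. On Roquin san/+ G it was at the lowest signal of that array, so that its level there is only a bound, and the lowest level, -7.11, was that of the dim array C, where the probe was not well above background. With normexp C was at -3.76, 3 Roquin san/+ arrays lay below every wild-type array and the difference was -0.50. The third Lef1 probe gave -0.41. The mean of 7 naive T-cell markers on the arrays ran with the bright Lef1 probe: it was lowest on Roquin san/+ C (-0.78), F (-0.38) and G (-0.07) and on wild-type C (-0.23), and between 0.36 and 0.95 on the others. The part of naive cell content in the Lef1 levels was not tested.

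Prdm1, which encodes Blimp-1, the antagonist of Bcl6, had a higher mean in Roquin san/+. Its probe ran from -3.22 to -1.09 (median -2.86) in Roquin san/+ and from -3.71 to -2.60 (median -3.26) in wild-type, and all 7 Roquin san/+ arrays lay above the wild-type median. The means were -2.59 ± 0.73 and -3.25 ± 0.42 (SD, n = 7 each), a difference of 0.66 (SE 0.31, adjusted P value 0.882 in limma; exact permutation P = 0.0425), or 1.58-fold. Only C (-1.09) and G (-2.24) lay above the highest wild-type array, and C was the dim array. Without C the difference was 0.41 (exact permutation P = 0.0833). It was 1.17 within slide 1 and 0.15 within slide 2, and with slide as a block it was 0.66 (exact permutation within slides P = 0.0907). Prdm1 is also a factor of plasma cells. The mean level of 5 plasma cell markers was highest of the Roquin san/+ arrays on C (-0.62, against -2.45 to -1.25 on the others). Of the wild-type arrays it was highest on C (-0.73), which had the lowest wild-type Prdm1. The part of plasma cells in these levels was not tested.

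**Figure D2:**
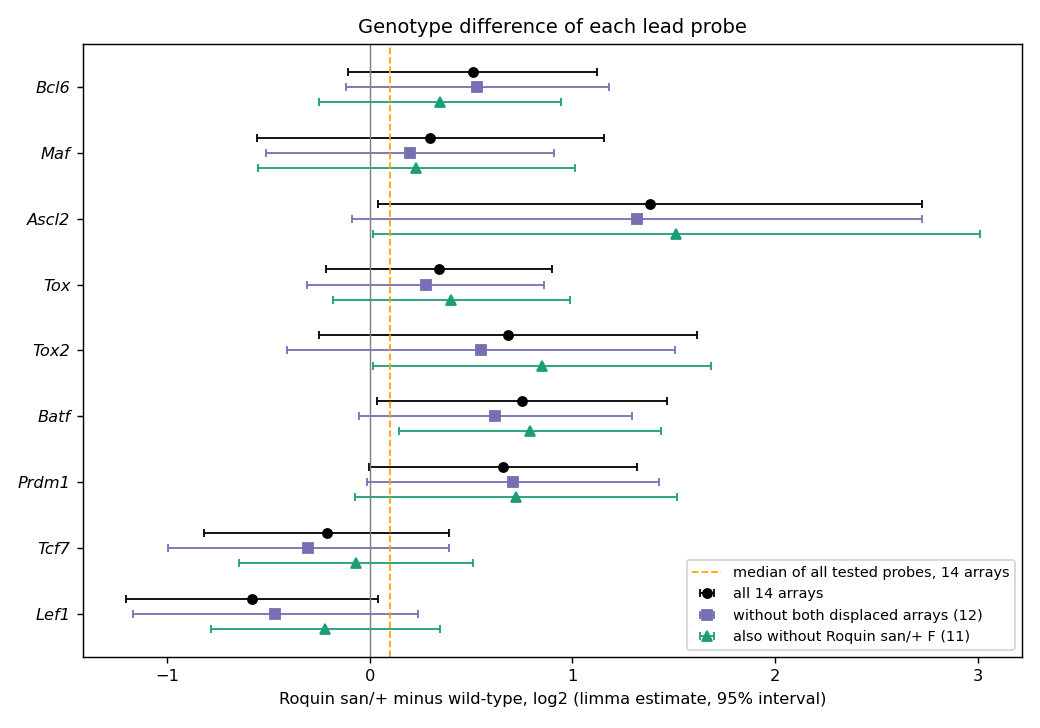
Difference between genotypes (Roquin san/+ minus wild-type, log2) of the 9 lead probes with 95% intervals from limma, over all 14 arrays, the 12 well-placed arrays, and those without Roquin san/+ F (11). The dashed line is the median of all tested probes (0.10); Ascl2 lies farthest to the right at 1.38, and Tcf7 and Lef1 lie left of 0 in each of the 3 sets.

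Single arrays were extreme for several factors at once. Roquin san/+ G, a displaced array, was the highest of its genotype for Maf, Ascl2, Tox, Tox2 and Batf. It also had the highest mean of the activated or memory T-cell markers (0.40, against -1.43 to -0.37 on the 13 other arrays) and of the Tfh surface and effector genes (-1.18, against -3.70 to -1.88). Roquin san/+ F was the lowest of its genotype for Ascl2, Tox, Tox2, Batf, Tcf7 and Lef1 and the highest for Bcl6. Wild-type E, the other displaced array, was the highest of its genotype for 5 genes, Bcl6, Maf, Prdm1, Batf and Lef1. The part of the displacement in these levels was not tested. Wild-type C was the lowest of its genotype for 7 genes, Bcl6, Maf, Tox, Prdm1, Batf, Tcf7 and Lef1, and wild-type G for Ascl2 and Tox2. T-cell markers were low as well on F and wild-type C, while on G their mean of 1.96 lay within the range of the other arrays.

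**Figure D3:**
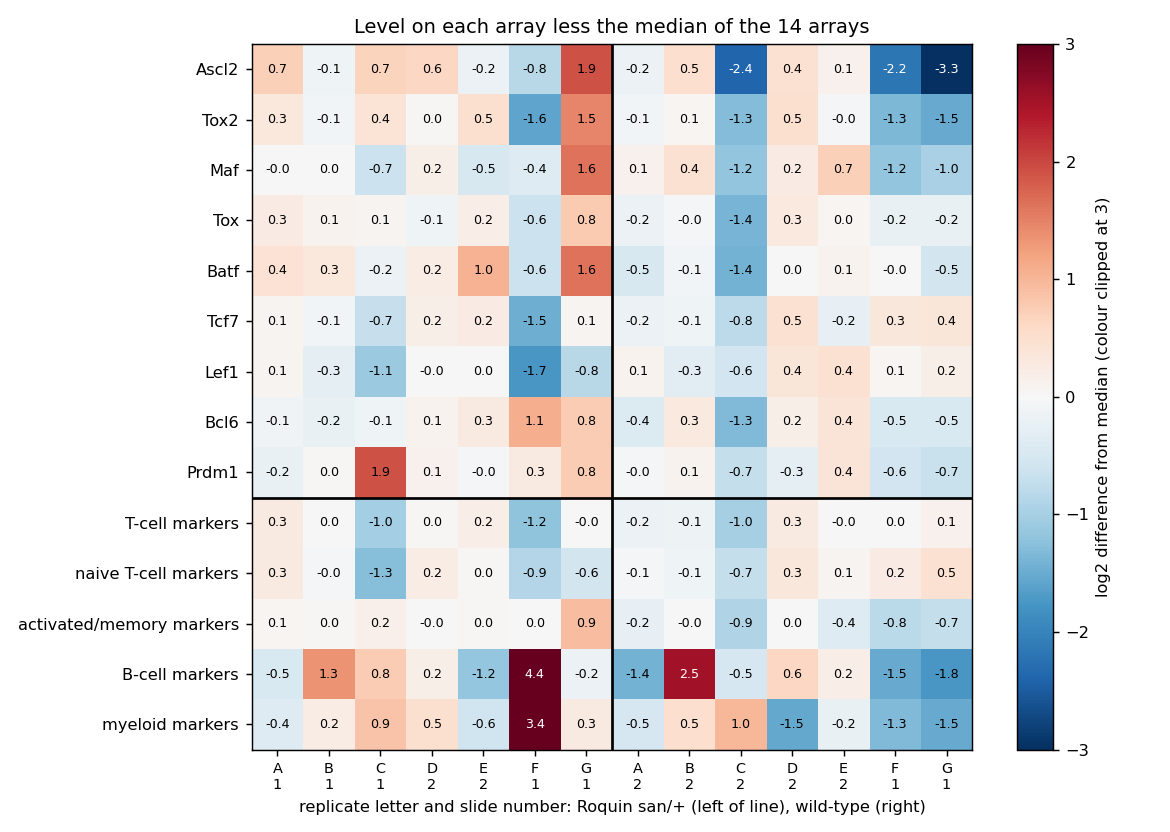
Level of the 9 lead probes (top) and mean level of 5 marker lists (bottom) on each array, less the median of the 14 arrays (log2, colour clipped at 3). The column of Roquin san/+ G lies above the median for 8 factors, that of Roquin san/+ F below it for 7 factors and above it for B-cell and myeloid markers, and that of wild-type C below it for all 9 factors.

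The levels of the factors were then compared with each other across arrays, after removing the mean of each genotype. Of 36 pairs, 12 had a permutation P value below 0.05 after adjustment over the pairs, and in all 12 the levels moved in the same direction. The lowest r among them was 0.65, a value that 10% of all pairs of the 21614 genes with a tested probe reached or passed, so that high correlations were common on these arrays. Of the 36 pairs 33.3% reached it. The 3 highest correlations were those of Ascl2 with Tox2 (r = 0.88, rho = 0.93, permutation P = 1.2e-04, adjusted 0.00324), Tox with Batf (r = 0.88, rho = 0.85, adjusted P = 0.00324) and Maf with Ascl2 (r = 0.85, rho = 0.89, adjusted P = 0.0115). Without the 2 arrays farthest from the median of the first gene these were 0.88, 0.77 and 0.84. The 3 pairs held within each slide, at 0.92 and 0.86, 0.92 and 0.94, and 0.66 and 0.95 on slides 1 and 2 (7 arrays each). Tox and Tox2 had an r of 0.78 (rho = 0.82, adjusted P = 0.0112), with 0.98 and 0.99 within the slides. Of the 12 pairs, 9 were among Ascl2, Tox2, Maf, Tox and Batf, which have 10 pairs between them, a grouping made after the values were seen.

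Tcf7 and Lef1 moved together (r = 0.83, rho = 0.67, adjusted P = 0.0115), with 0.88 within slide 1, 0.69 within slide 2 and 0.56 without Roquin san/+ F and wild-type C. The remaining 2 pairs were Tcf7 with Batf (r = 0.73, rho = 0.55, adjusted P = 0.0304) and with Tox (r = 0.70, rho = 0.40, adjusted P = 0.0310). The latter was 0.13 without Roquin san/+ F and wild-type C. By rank correlation 8 of the 12 pairs passed, and the 4 that did not were Tcf7 with Lef1, Batf and Tox (adjusted P = 0.0541, 0.125 and 0.270) and Maf with Batf (adjusted P = 0.0871). Maf and Batf had an r of 0.65 (rho = 0.58, adjusted P = 0.0426), which was 0.38 without Roquin san/+ G and wild-type E. These calls rested in part on single arrays. The number of pairs was 8 without both displaced arrays, 6 without wild-type C, and 1 (Tcf7 with Lef1, r = 0.89) without Roquin san/+ F and both displaced arrays, where Ascl2 with Tox2 still had an r of 0.92 over 11 arrays. Over these 11 arrays 16.2% of all gene pairs reached an r of 0.65.

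Bcl6 was not among the 12 pairs, and its correlations depended on Roquin san/+ F. Over all 14 arrays the r of Bcl6 was 0.61 with Maf (rho = 0.64, adjusted P = 0.0680), 0.47 with Ascl2 (rho = 0.43, adjusted P = 0.227), 0.40 with Batf (rho = 0.43, adjusted P = 0.268), and -0.076 with Tcf7 (rho = 0.042, adjusted P = 0.817). Without F, with genotype means taken again, these were 0.80, 0.73, 0.85 and 0.42. Without F and wild-type C, the 2 arrays farthest from the Bcl6 median, they were 0.76, 0.66, 0.69 and -0.052. The latter kept the genotype means of all 14 arrays, so the 2 sets of values are not alike. Within slide 1, which holds F, they were 0.34, -0.093, 0.00045 and -0.53, and within slide 2 they were 0.89, 0.90, 0.93 and 0.71. The part of B-cell RNA in these values was not tested beyond leaving out this array.

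The antagonists did not move against each other in a way that passed the test. Bcl6 and Prdm1 had an r of 0.29 (rho = 0.50, permutation P = 0.316, adjusted 0.437), 0.37 without F, 0.28 without F and wild-type C, -0.071 within slide 1 and 0.82 within slide 2. Over the 7 wild-type arrays alone it was 0.80, and over the 7 Roquin san/+ arrays -0.039. The 3 lowest correlations were those of Prdm1 with Lef1 (r = -0.32, rho = -0.34, adjusted P = 0.475), Prdm1 with Tcf7 (r = -0.29, rho = -0.31, adjusted P = 0.475) and Bcl6 with Lef1 (r = -0.15, rho = -0.011, adjusted P = 0.637). Without Roquin san/+ C and wild-type E, the arrays farthest from the Prdm1 median, Prdm1 with Tcf7 was at -0.088 and with Lef1 at -0.35. Prdm1 with Maf had an r of 0.32 (rho = 0.59, adjusted P = 0.389), and 0.11 without Roquin san/+ G and wild-type E.

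**Figure D4:**
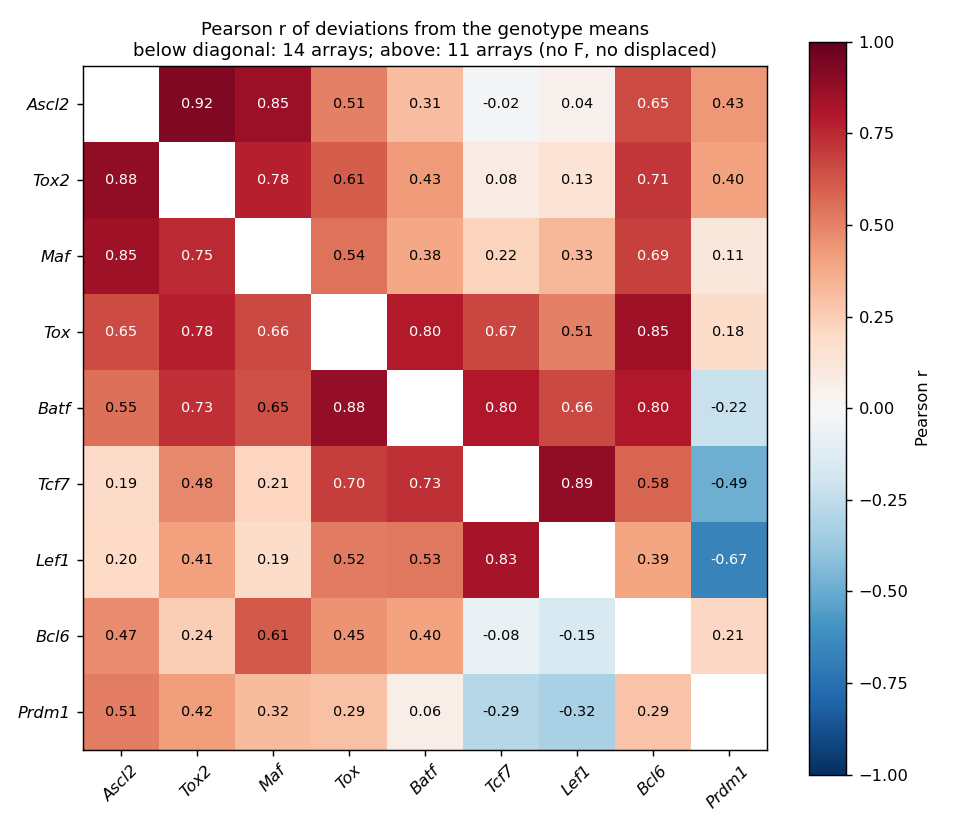
Pearson correlation between the lead probes of the 9 genes after removing the mean of each genotype, over all 14 arrays (below the diagonal) and over 11 arrays without Roquin san/+ F and both displaced arrays (above). Ascl2, Tox2, Maf, Tox and Batf are positive with each other on both sides, from 0.55 to 0.88 below and from 0.31 to 0.92 above, while Bcl6 with Tcf7 turns from -0.076 to 0.58.

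Over the 12 well-placed arrays, the genes whose probes followed Bcl6 most closely were Nfkb2 (r = 0.98), which encodes a non-canonical NF-kB subunit, Ikzf3 (r = 0.97), which encodes the lymphoid factor Aiolos, and Fbxl5 (r = 0.96). Without F these values were 0.97, 0.96 and 0.94. Those closest to Tcf7 were Gcat, the T-cell surface gene Cd5 and Il6st, the signalling chain of the interleukin-6 receptor (r = 0.98 each; 0.98, 0.96 and 0.97 without F). Those closest to Prdm1 were Kcnab3, Snx16 and the odorant receptor gene Olfr1093 (r = 0.98 each), and without the dim array C these were 0.92, 0.91 and 0.92. As the highest of all tested probes over 12 arrays, these values are descriptions only.

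Different probes of one gene did not always move together. The r between the lead probe and the others, over the 14 arrays, was 0.95, 0.65 and 0.38 for Tox, 0.90 and 0.78 for Tcf7, 0.79 and 0.75 for Maf, 0.70 for Bcl6, 0.60 and 0.43 for Lef1 and 0.52 for Tox2. The low value of Tox2 belongs to a dim probe that was at the lowest signal on Roquin san/+ C and G and wild-type E. Averaging all tested probes of a gene gave differences of 0.53 for Maf in place of 0.30, -0.70 for Lef1 in place of -0.58, and 0.49 for Bcl6.

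None of the genes on which these factors act passed the test. Of 14 Tfh surface and effector genes 11 had higher and 3 lower means in Roquin san/+, where 63.5% of all tested probes were higher, with a median difference of 0.36, and 0 were called. Icos, the costimulatory receptor that Roquin-1 restrains, was at -0.18 ± 0.65 against -0.87 ± 0.58 (SD, n = 7 each), a difference of 0.70 (limma adjusted P value 0.882; exact permutation P = 0.0559). The helper cytokine gene Il21 differed by 1.32 (exact permutation P = 0.161), the inhibitory receptor gene Pdcd1 by 0.84 (P = 0.122) and the follicle-homing receptor gene Cxcr5 by 0.61 (P = 0.453). Without F and both displaced arrays the Cxcr5 difference was 0.031, while Icos was at 0.88, Pdcd1 at 0.99 and Il21 at 1.33. The Cxcr5 difference was 1.22 without the dim array C, whose level of -4.94 was not well above background. Within slides 1 and 2 Il21 differed by 3.41 and 0.15, Cxcr5 by 1.14 and 0.44, Pdcd1 by 1.35 and 0.88, and Icos by 0.81 and 0.86. Il21 was at 0.84 without wild-type G. Over the mean of each gene's tested probes Il21 was at 0.86 and Icos at 0.59. On F Cxcr5, a gene that B-cells also express, stood at 0.35, just above the 6 remaining Roquin san/+ arrays, of which the highest was at 0.31. At the other end were Il6st (-0.16) and the cytokine gene Il4 (-0.084).

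Of 14 further factors that act with the Tfh programme 10 had higher and 4 lower means, with a median difference of 0.36 and 0 called. Over all tested probes 63.5% were higher, with a median of 0.10. Irf4, the partner of Batf on AP-1 composite sites, was at -3.26 ± 0.61 against -4.22 ± 0.56, a difference of 0.96 (limma adjusted P value 0.882; exact permutation P = 0.0122), which was 0.66 without F and both displaced arrays, 1.55 within slide 1 and 0.51 within slide 2. Over the mean of the tested Irf4 probes it was 0.70. The Tfh and B-cell coactivator gene Pou2af1 differed by 1.06 (exact permutation P = 0.0798), and it was at 1.34 on F and between -2.11 and 0.18 on the 6 remaining Roquin san/+ arrays. Its difference was 2.17 within slide 1 and -0.21 within slide 2. Notch1 (-0.21) and Bach2, a repressor of effector programmes (-0.16), were the lowest.

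Of 12 tested factors that act against the programme or drive other CD4 fates 8 had higher and 4 lower means, with a median difference of 0.20 and 0 called. This lies near the 63.5% higher and the median of 0.10 over all tested probes. Eomes, a T-box factor of cytotoxic and memory T-cells, was at -2.86 ± 0.68 against -3.93 ± 0.64, a difference of 1.07 (limma adjusted P value 0.882; exact permutation P = 0.0122), and 0.95 without F and both displaced arrays, but 2.02 within slide 1 and 0.18 within slide 2. Zeb2 differed by 0.58 (exact permutation P = 0.407), 1.92 within slide 1 and -0.45 within slide 2. Stat5a and Stat5b, the interleukin-2 signal transducers that oppose Bcl6, had the lowest differences at -0.36 (exact permutation P = 0.103) and -0.066 (P = 0.714). At an unadjusted limma P value below 0.05 the 3 lists held 1, 1 and 2 genes that were higher and none that was lower, where 2.96% and 0.279% of all tested probes were. These were Icos, Irf4, and Eomes with Runx3, the last a factor of cytotoxic T-cells named after its values were seen (difference 0.42, exact permutation P = 0.00408). Klf2 was not analysed here.

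**Figure D5:**
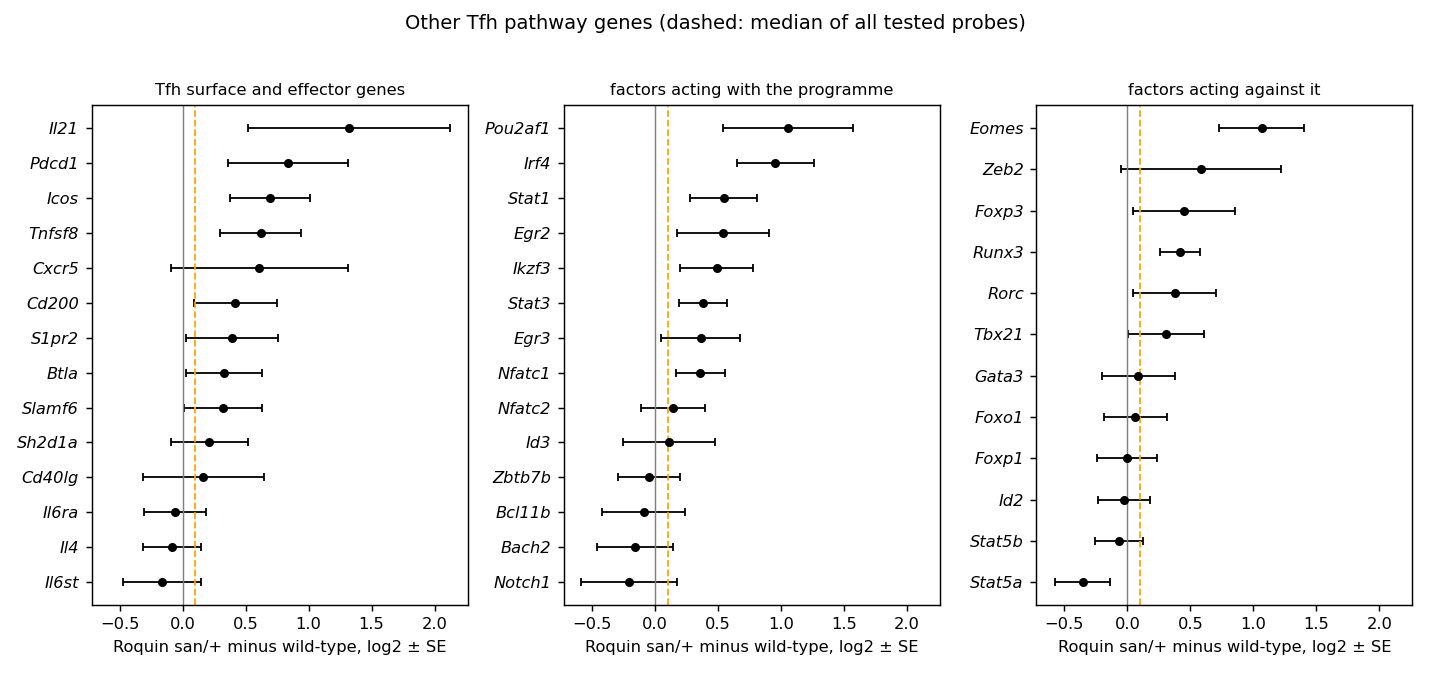
Difference between genotypes (Roquin san/+ minus wild-type, log2 ± SE from limma) of the lead probes of 14 Tfh surface and effector genes, 14 factors that act with the Tfh programme and 12 that act against it. The dashed line is the median of all tested probes (0.10); Il21 (1.32), Pou2af1 (1.06) and Eomes (1.07) lie highest in their lists.

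Markers of other cells and states also differed in mean between the genotypes, with 0 called, and their part in the values above was not tested. Over all tested probes 63.5% were higher in Roquin san/+. The 6 activated or memory T-cell markers were all higher in Roquin san/+ (median difference 0.56, 0 called), led by S100a4 (1.07, exact permutation P = 5.83e-04, the smallest possible) and Cxcr3 (0.71), and all 7 tested naive T-cell markers were lower (median -0.34), with Dapl1 at -0.83. B-cell markers differed by a median of 0.88 and myeloid markers by 1.17 over all arrays. Without F and both displaced arrays these medians were 0.34 and 0.46, that of the activated or memory markers was 0.50, that of the naive markers -0.11 and that of the 9 factors 0.40. The 3 tested CD8 T-cell markers, among them Gzmk (2.49), had a median equal to that of Nkg7 (1.002), or 0.60 without these arrays. Also among them, Cd8b1 differed by 0.54, and without these arrays by -0.054, where Gzmk was at 2.06. The NK and erythroid markers had medians of 0.27 and 0.26, and -0.17 and -0.45 without these arrays. Medians of the 3 tested germinal centre B-cell markers and the 5 plasma cell markers were 0.39 and 0.49, and that of the 8 T-cell markers was -0.13. List medians were not split by slide. On slide 2 the naive marker mean was 0.72 and 0.52 in Roquin san/+ (D and E), and -0.23 to 0.83 in wild-type. On slide 1 it was -0.78 to 0.76 in Roquin san/+, and 0.73 and 0.95 in wild-type. The B-cell marker mean was -4.38 and -5.70 against -5.96 to -2.04 on slide 2. It was -5.01 to -0.17 against -6.06 and -6.31 on slide 1.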

How the data were processed

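RNA of CD4+ T-cells was measured on 14 one-colour Agilent arrays, 7 of each genotype. The authors deposited spot intensities from Agilent Feature Extraction 10.5.1.1, per the labels, with a background-subtracted processed signal, and a table of log2 values whose method is not given in the sources used here; it was used as an alternative. Spots of 2 arrays were moved by 2 rows, a shift found over 169 trials without using genotype. Control spots were left out. Spots flagged as outliers were left out on the 12 well-placed arrays, except where every spot of a probe was flagged. Flags were not used on the 2 displaced arrays once moved. Spots of a probe were averaged as log2 intensity. From each array the 75th percentile was subtracted, taken over 10345 probes that were well above background on every array. Probes well above background on at least 6 of 12 well-placed arrays (32941 of 56605) were compared in limma 3.58.1 under R 4.3.3 (lmFit with eBayes, Benjamini-Hochberg, threshold 0.05). Single genes were also tested by a two-sided exact permutation over 3432 arrangements (smallest possible P = 5.83e-04). Correlations used deviations from genotype means with 100000 shuffles within genotype (Python 3.11.15, numpy 2.4.6, pandas 2.3.3, scipy 1.17.1). Scripts were tested on simulated data. The share of all gene pairs at a given correlation was added after seeing the data. The number of arrays limits the precision.

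The 9 genes and all lists were chosen with earlier results of these data known. All 9 genes were named, each led by its brightest tested probe, with 10 chosen pairs, the 3 highest and 3 lowest pairs, the 3 genes most like Bcl6, Prdm1 and Tcf7, and, of each pathway list, the genes with the 2 highest and 2 lowest differences (fewer of each marker list), with Icos, Cxcr5, Pdcd1 and Il21. Alternatives covered background correction (normexp, offset 50), normalization, filters, probe names as deposited, slide, replicate letter, array weights, the authors' log2 values, the mean of a gene's probes and leaving out arrays. Replicate letters did not pair the arrays (correlations of same-lettered arrays from -0.28 to 0.41).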

Additional observations from a re-analysis of the deposited data

Results flagged for a closer look

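Among 18 groups of 7 arrays, 1 for each gene and genotype, 3 held an array whose gap to its nearest neighbour exceeded Dixon's critical value, where chance flags about 1 in 20. Maf on Roquin san/+ G was at 0.080, the highest of its genotype, with the next array at -1.36 (gap 0.64 of the range). It was 0.078 with normexp. G is one of the 2 displaced arrays. Tox on wild-type C was at -3.02, with the next array at -1.85 (gap 0.69 of the range). Batf on the same array was at -2.33, with the next at -1.46 (gap 0.58 of the range). Wild-type C had the lowest mean level of T-cell markers in its genotype, 0.98 with the remaining wild-type arrays between 1.79 and 2.24. The part of these markers in the Tox and Batf levels was not tested.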

How the results depend on the processing

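The count of called factors was 0 of 9 in each of the 30 alternative fits, and so was the count of called genes on the 3 pathway lists. In these data 1066 of 32941 probes had an unadjusted P value below 0.05 (limma), and the smallest adjusted P value of any probe in any fit was 0.170, within slide 1 alone. Of the 9 differences, 7 kept their sign in every fit, and 2 turned within slide 2 alone, Maf to -0.22 and Tcf7 to 0.38. With the replicate letter as a block the 9 differences were those without the block by construction (Bcl6 0.51), as each letter holds both genotypes, and no factor was called. With letter and slide as blocks Tox was at 0.086 and Lef1 at -0.90. The letters did not pair the arrays. When each array was left out in turn, the difference ran from 0.33 (without wild-type C) to 0.62 for Bcl6, 0.035 to 0.46 for Maf, 1.002 to 1.63 for Ascl2, 0.15 to 0.47 for Tox, 0.46 to 0.97 for Tox2, 0.41 to 0.77 for Prdm1, 0.55 to 0.93 for Batf, -0.34 to -0.0074 for Tcf7 and -0.69 to -0.38 (without Roquin san/+ F) for Lef1. With the deposited probe names, which give 2 arrays the values of other probes, Ascl2 was at 1.02, Batf at 0.49 and Lef1 at -0.57. With array weights Bcl6 was at 0.21, Prdm1 at 0.34 and Lef1 at -0.26.

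The number of correlated pairs was 12 of 36, and 8 to 13 in the other settings, apart from 1 without Roquin san/+ F and both displaced arrays, where 13 pairs still had an r of 0.65 or above. It was 6 (without wild-type C) to 15 (without Roquin san/+ C) when each array was left out. Some correlations below the threshold changed sign. Without F and both displaced arrays Bcl6 with Tcf7 was 0.58, Bcl6 with Lef1 0.39, Ascl2 with Tcf7 -0.016 and Prdm1 with Batf -0.22. Prdm1 with Batf was -0.16 without both displaced arrays. With genotype means kept, Ascl2 with Lef1 was -0.10. With the authors' values Maf with Prdm1 was -0.20 and Prdm1 with Lef1 0.036. Leave-one-out ranges that crossed 0 were -0.47 to 0.42 for Bcl6 with Tcf7, -0.48 to 0.25 for Bcl6 with Lef1, -0.033 to 0.40 for Ascl2 with Tcf7, -0.0012 to 0.30 for Ascl2 with Lef1, -0.0010 to 0.56 for Tox2 with Lef1 and -0.070 to 0.47 for Prdm1 with Batf.

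Some named pathway genes changed sign. Within slide 2 alone these included 2 with large differences over all arrays, Pou2af1 (1.06) at -0.21 and Zeb2 (0.58) at -0.45, as well as Il6st at 0.28, Bach2 at 0.24 and Notch1 at 0.013. Within slide 1 Il4 was 0.11 and Notch1 0.076. Notch1 was 0.045 with slide as a block, 0.056 without F and both displaced arrays and 0.12 over the mean of its probes. Il4 was 0.14 with normexp and Bach2 0.063 with the deposited names. Leave-one-out ranges were -0.33 to 0.049 for Il6st, -0.23 to 0.023 for Il4 and -0.18 to 0.021 for Stat5b. The cause of these changes was not tested. On the 2 displaced arrays 38.2% and 42.7% of tested probes were at the lowest signal, which limits the dim member probes.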
